A study of Mus musculus with 32 samples.

Results

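The comparison set translating RNA of Gprin3-bacTRAP wild-type mice (2 libraries) against that of Colgalt2-bacTRAP wild-type mice (3 libraries). These 5 immunoprecipitated (IP) libraries were chosen by their titles from the 32 samples of the series. Both groups were SOD-negative animals of crosses with the SOD1*G93A mouse, a transgenic model of amyotrophic lateral sclerosis (ALS). The strains are Gprin3-bacTRAP::SOD1*G93A and Colgalt2-bacTRAP::SOD1*G93A, each with genotype SOD-, and the series used adult mice of 8 to 17 weeks. The Gprin3 tissue was primary motor cortex (M1), and the Colgalt2 tissue was whole cortex by its brain-region label and the extraction text, although its source name says M1. Line and dissection therefore move together, and their parts in any difference below cannot be told apart. Other libraries of the series serve as points of reference: 3 Gprin3 and 4 Colgalt2 IPs of SOD1*G93A littermates with the same dissections, 2 Gprin3 and 2 Colgalt2 baseline IPs of wild-type mice without the SOD1 cross and both from M1, and 5 whole-tissue M1 inputs of wild-type littermates from the Gprin3 cross.

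In a bacTRAP line, regulatory DNA on a bacterial artificial chromosome drives the ribosomal protein L10a fused to the fluorescent protein EGFP, so that ribosomes and their RNA can be pulled from the cells that use that regulatory DNA. Both lines mark pyramidal neurons of layer 5b, the output layer whose long axons reach the brainstem and spinal cord; by the labels Gprin3-bacTRAP marks those of the lower part of the layer and Colgalt2-bacTRAP those of the upper part. A pulldown also carries RNA from other cells to a varying degree, and an IP measures ribosome-bound RNA rather than all RNA of a cell.

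The Gprin3 libraries held 22380982 and 16785805 counts and the Colgalt2 libraries 37631649, 77220890 and 28079720. Across genes, log levels of libraries correlated at 0.981 within the Gprin3 group and at 0.964 to 0.983 within the Colgalt2 group, against 0.940 to 0.961 between the groups. No label says that the libraries of a group came from separate animals, so p-values measure the spread between these libraries, which may be technical. Levels are given as CPM, a gene's counts scaled by the total of its library, in replicate order. Fold changes are Gprin3 over Colgalt2, and adjusted p-values come from the edgeR quasi-likelihood test with Benjamini-Hochberg adjustment over 14813 genes, with a threshold of 0.05.

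Colgalt2 replicate 1 stood apart from its group in several transcripts of other cells or of nuclei. The nuclear RNA Malat1 was at 3973 CPM in it, against 1143 and 521 CPM in Colgalt2 replicates 2 and 3, with 947 and 1322 CPM in the Gprin3 libraries. Summed oligodendrocyte markers were at 526 and 721 CPM in Gprin3 libraries, against 1047, 534 and 658 CPM in Colgalt2 libraries. Summed astrocyte markers were at 2151 and 2957 CPM in Gprin3 libraries, against 3090, 1506 and 1747 CPM in Colgalt2 libraries. In both sums the high Colgalt2 value is replicate 1, and the groups overlap. For several results given below that turn on this library, the value without it is added. The Gprin3 libraries in turn stood apart from the other Gprin3 IPs in glial markers. Summed astrocyte markers were at 956 to 983 CPM in Gprin3 IPs of SOD1*G93A mice and at 1062 to 1202 CPM in baseline Gprin3 IPs, and oligodendrocyte markers at 157 to 167 and 182 to 197 CPM.

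Of 14813 genes tested, 1926 (13.0%) passed the threshold. Of these, 1022 (6.90% of genes tested) were higher and 904 (6.10%) were lower in Gprin3 IPs, and the median log2 fold change over all genes tested was -0.02. Libraries of the groups did not overlap in CPM for 7059 genes (47.7%). Leaving out single libraries moved the number of calls widely. It was 353 without Gprin3 replicate 1, 384 without Gprin3 replicate 2 and 524 without Colgalt2 replicate 2, and it was 2863 without Colgalt2 replicate 1 and 2349 without Colgalt2 replicate 3. With 1 Gprin3 library left, its spread is assumed to be that of the Colgalt2 group. Of 129 genes given below as past the threshold, 56 passed without each library in turn.

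**Figure D1:**
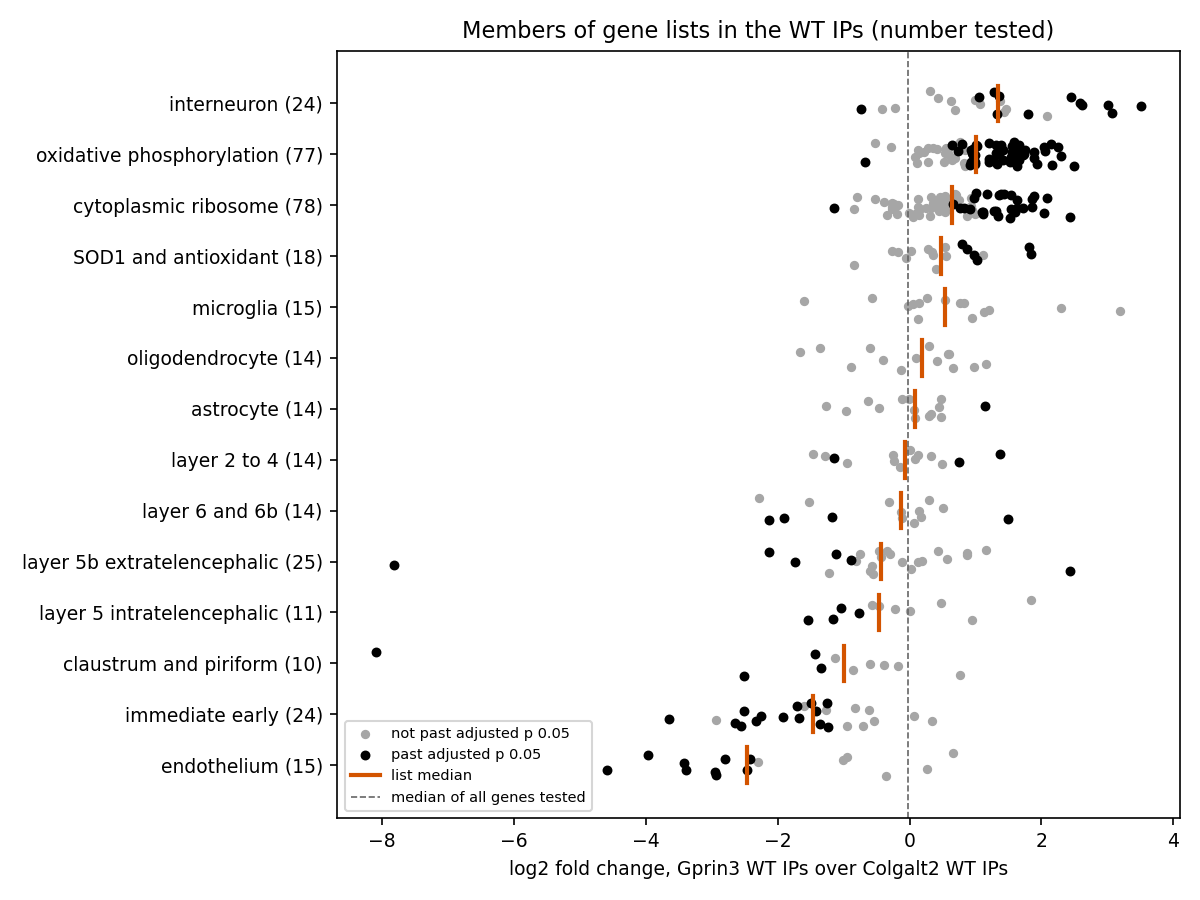
Log2 fold changes, Gprin3 over Colgalt2 wild-type IPs (x axis), of the members of 14 gene lists; each point is 1 gene tested, black points passed an adjusted p of 0.05, grey points did not, and the orange bar is the list median. Interneuron, respiratory chain and ribosomal medians lie right of zero (1.34, 1.0 and 0.65) and endothelial and immediate early medians left of it (-2.47 and -1.46). Trh in the claustrum list, with no read in the Gprin3 libraries, is drawn at its fitted value, which is not a measured fold.

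The genes that give the lines their names were read first. Colgalt2 encodes a collagen galactosyltransferase, and Gprin3 a G protein-regulated inducer of neurite outgrowth. Colgalt2 was at 6.57 and 7.57 CPM in Gprin3 IPs, against 95.3, 111 and 102 CPM in Colgalt2 IPs. All Colgalt2 libraries were far above both Gprin3 libraries, with a log2 fold change of -3.88 ± 0.24 (SE) and an adjusted p of 1.9e-05. Gprin3 was at 37.2 and 23.7 CPM in Gprin3 IPs, against 23.7, 28.4 and 37.1 CPM in Colgalt2 IPs. The Gprin3 values overlap fully (log2 fold change 0.01 ± 0.30, adjusted p = 0.988), and the sign of that value turned under other settings. In the baseline IPs, both from M1, Gprin3 was higher in the Gprin3 line, at 38.9 to 49.7 CPM against 16.5 to 17.5 CPM (log2 fold change 1.39, adjusted p = 0.0244).

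The neighbours of Colgalt2 on chromosome 1 also differed. Tsen15, a subunit of the tRNA splicing endonuclease, lies at chr1:152370735-152386688 of the GENCODE annotation (GRCm38), 13142 bp from Colgalt2. Its levels were 14.9 and 11.9 CPM in Gprin3 IPs, against 102, 82.5 and 130 CPM in Colgalt2 IPs. The groups are far apart, with a log2 fold change of -2.99 ± 0.28 and an adjusted p of 0.000212. The difference was there in whole tissue too: baseline M1 inputs had 17.3 to 20.8 CPM in the Gprin3 line, against 167 to 174 CPM in the Colgalt2 line. Colgalt2 itself was at 3.67 to 4.96 CPM in baseline inputs of the Gprin3 line, against 52.8 to 57.0 CPM in those of the Colgalt2 line. Whether the transgene carries these sequences was not tested.

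Rgl1, a Ral guanine nucleotide exchange factor on the other side, 6065 bp from Colgalt2, was at 151 and 149 CPM in Gprin3 IPs, against 298, 388 and 487 CPM in Colgalt2 IPs (log2 fold change -1.41, adjusted p = 0.00501). Its baseline inputs overlapped, at 113 to 128 CPM in the Gprin3 line and 117 to 144 CPM in the Colgalt2 line. Tigd2, a transposon-derived gene 135193 bp from Gprin3 on chromosome 6, was at 35.7 and 34.5 CPM in Gprin3 IPs, against 9.94, 13.6 and 16.4 CPM in Colgalt2 IPs (log2 fold change 1.37, adjusted p = 0.0108). The calls of Rgl1 and Tigd2 were lost without either Gprin3 library, at adjusted p-values of 0.0665 and 0.0693 for Rgl1 and 0.0939 and 0.0799 for Tigd2. Tigd2 was also lost without Colgalt2 replicate 2, at an adjusted p of 0.0616. Rpl10a, which encodes the tagged protein, was at 17.0 and 15.3 CPM in Gprin3 IPs, against 21.7, 29.0 and 34.5 CPM in Colgalt2 IPs. Its difference did not pass the threshold (adjusted p = 0.0772), but it did without Colgalt2 replicate 1 (log2 fold change -1.06, adjusted p = 0.0111).

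**Figure D2:**
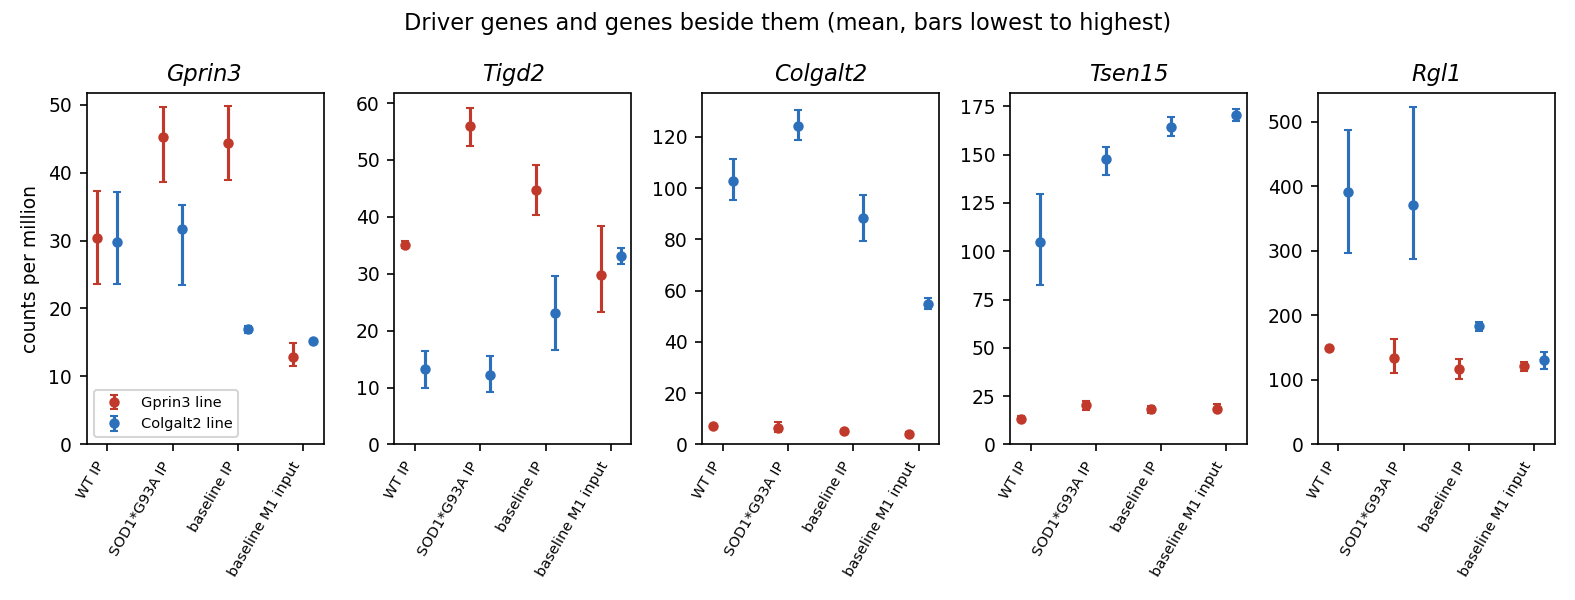
CPM of Gprin3, Tigd2, Colgalt2, Tsen15 and Rgl1 in the Gprin3 line (red, left of each pair) and the Colgalt2 line (blue), for wild-type, SOD1*G93A and baseline IPs and baseline M1 inputs; points are means and bars run from the lowest to the highest library. Colgalt2 and Tsen15 separate the lines in IPs and in inputs, whereas Gprin3 overlaps in the wild-type IPs.

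Markers of layer 5b neurons that project out of the forebrain, the class both lines are labelled for, exceeded the M1 inputs in sum. Their summed level was 3140 and 2965 CPM in Gprin3 IPs, against 3808, 4481 and 4530 CPM in Colgalt2 IPs, and 1265 to 1427 CPM in the M1 inputs. Both lines were thus above M1 tissue, and the Gprin3 libraries were below each Colgalt2 library. The Colgalt2 IPs were labelled whole cortex, and they were not set against an input of that tissue. Of 25 members tested, 1 was higher and 5 were lower in Gprin3 IPs, with a median log2 fold change of -0.44. Bcl11b, a transcription factor that marks the class, was at 158 and 156 CPM in Gprin3 IPs and 139, 141 and 145 CPM in Colgalt2 IPs (adjusted p = 0.666). The lower sum was not seen in the baseline IPs, both from M1. There the lines overlapped, at 3134 to 3139 CPM in the Gprin3 line and 2706 to 3746 CPM in the Colgalt2 line. Of the 25 members, 3 were higher and 1 was lower in the Gprin3 line of that set (median 0.23), where 2.22% of all genes were higher and 4.45% lower.

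Fezf2, the transcription factor that specifies corticospinal identity, was at 95.3 and 78.5 CPM in Gprin3 IPs, against 225, 443 and 446 CPM in Colgalt2 IPs. The groups do not overlap, and Fezf2 fell with a log2 fold change of -2.13 ± 0.32 (adjusted p = 0.00231). Vat1l, a gene typical of deep projection neurons, was at 69.6 and 72.3 CPM in Gprin3 IPs, against 170, 239 and 286 CPM in Colgalt2 IPs (log2 fold change -1.74, adjusted p = 0.00226). The neurofilament subunit Nefm, at 735 and 670 CPM in Gprin3 IPs against 1165, 1322 and 1357 CPM in Colgalt2 IPs, also fell (log2 fold change -0.89, adjusted p = 0.0135). Nefm missed the threshold without either Gprin3 library (adjusted p = 0.135 and 0.199) and without Colgalt2 replicate 2 (0.078). Slco2a1, a prostaglandin transporter, was the member that rose, to 17.6 and 8.22 CPM in Gprin3 IPs, against 2.15, 2.32 and 2.60 CPM in Colgalt2 IPs (log2 fold change 2.43, adjusted p = 0.00478). Without Gprin3 replicate 1 it missed the threshold (adjusted p = 0.123).

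Erg had the most extreme value in the layer 5b list. It encodes an ETS-family transcription factor that is also known from blood vessel endothelium. Its levels were 0.134 and 0.119 CPM in Gprin3 IPs, against 26.9, 30.9 and 30.2 CPM in Colgalt2 IPs, near absence against a uniform level. The log2 fold change was -7.83 ± 0.44 (adjusted p = 9.1e-06), and the M1 inputs held 0.464 to 2.34 CPM. The number of lower members in the layer 5b list was 3 without either Gprin3 library or Colgalt2 replicate 2, and 10 without Colgalt2 replicate 1.

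Markers of other pyramidal classes were split, where 6.90% of all genes tested rose and 6.10% fell. Of 11 layer 5 intratelencephalic members, whose neurons project within the cortex and striatum, 4 fell and none rose (Etv1, Ptn, Tox and Deptor; median -0.47), and their summed level was 636 and 696 CPM in Gprin3 IPs, against 955, 1248 and 1235 CPM in Colgalt2 IPs. Etv1, an ETS-family factor of layer 5, was at 120 and 142 CPM in Gprin3 IPs, against 278, 435 and 406 CPM in Colgalt2 IPs (log2 fold change -1.53, adjusted p = 0.00324). None of the 4 was called without Gprin3 replicate 1, 1 without Gprin3 replicate 2 and 2 without Colgalt2 replicate 2. Of 14 layer 2 to 4 members, Calb1 and Rasgrf2 rose and Wfs1 fell, with a median of -0.07. Calb1 encodes the calcium buffer calbindin, also made by interneurons, and was at 170 and 162 CPM in Gprin3 IPs, against 69.9, 55.8 and 65.8 CPM in Colgalt2 IPs (log2 fold change 1.37, adjusted p = 0.0014). Calb1 passed without each library, whereas Rasgrf2 and Wfs1 missed the threshold without Gprin3 replicate 1 (adjusted p = 0.231 and 0.0635) and replicate 2 (0.178 and 0.0806).

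Of 14 layer 6 and 6b members, Syt6 rose and Ntsr1, Rprm and Car12 fell, with a median of -0.12, where 13.0% of all genes tested passed. Of 9 near-projecting layer 5 members tested, Nxph1 rose and Tshz2 and Fezf2 fell, with a median of 0.06. Of these, Syt6, Ntsr1, Rprm, Car12, Nxph1 and Tshz2 missed the threshold without Gprin3 replicate 1 (adjusted p up to 0.231). Slc17a7, the vesicular glutamate transporter of most cortical excitatory neurons, was at 646 and 590 CPM in Gprin3 IPs and at 506, 576 and 491 CPM in Colgalt2 IPs. Its difference did not pass the threshold (log2 fold change 0.22, adjusted p = 0.443).

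Interneuron markers made up the group with the highest median among the cell-type lists. Of 24 members tested, 11 rose in Gprin3 IPs, 1 fell and 12 did not pass, with a median log2 fold change of 1.34 against -0.02 over all genes. Their summed level was 2676 and 2690 CPM in Gprin3 IPs, against 1691, 1473 and 1366 CPM in Colgalt2 IPs and 2064 to 2242 CPM in the M1 inputs. Both Gprin3 libraries were above every input and every Colgalt2 library. In bulk libraries of this kind, the cells that these RNAs came from, tagged or not, cannot be told. Fewer cells of a type and less RNA per cell cannot be told apart either.

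Pvalb, the calcium buffer parvalbumin of fast-spiking interneurons, was at 196 and 230 CPM in Gprin3 IPs, against 17.0, 18.8 and 19.2 CPM in Colgalt2 IPs. Each Gprin3 library lies above and each Colgalt2 library below the M1 inputs, which held 75.7 to 115 CPM. The log2 fold change was 3.52 ± 0.20 (adjusted p = 9.1e-06). Sst, the peptide somatostatin, was at 515 and 465 CPM in Gprin3 IPs, against 51.8, 45.5 and 75.0 CPM in Colgalt2 IPs (log2 fold change 3.07 ± 0.24, adjusted p = 9.65e-05). Its inputs, at 63.0 to 80.2 CPM, were at the upper end of the Colgalt2 values and far below the Gprin3 values.

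Npy, neuropeptide Y, was at 51.9 and 55.3 CPM in Gprin3 IPs, against 7.68, 6.94 and 5.24 CPM in Colgalt2 IPs (log2 fold change 3.0 ± 0.25, adjusted p = 0.000126), with 96.6 to 107 CPM in inputs. Lhx6, a transcription factor of interneurons born in the medial ganglionic eminence, was at 61.3 and 39.0 CPM in Gprin3 IPs, against 8.58, 8.82 and 9.86 CPM in Colgalt2 IPs (log2 fold change 2.45, adjusted p = 0.00051). For Lhx6 the Gprin3 libraries were above the 17.4 to 35.3 CPM of the inputs, and for Npy they were below them. Vip, which marks another interneuron class, was at 16.2 and 15.1 CPM in Gprin3 IPs, against 2.52, 2.08 and 3.13 CPM in Colgalt2 IPs (log2 fold change 2.58, adjusted p = 0.00156).

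The enzymes and transporter of GABA itself differed less. Gad1, a glutamate decarboxylase, was at 201 and 219 CPM in Gprin3 IPs, against 134, 58.2 and 60.5 CPM in Colgalt2 IPs (log2 fold change 1.32, adjusted p = 0.0154), with 148 to 189 CPM in inputs. It missed the threshold without Gprin3 replicate 2 (adjusted p = 0.118), Gprin3 replicate 1 or Colgalt2 replicate 2 (0.0923). The Colgalt2 value nearest to the Gprin3 libraries is that of replicate 1, without which the log2 fold change was 1.74 (adjusted p = 6.9e-05). Gad2 did not pass the threshold (adjusted p = 0.075), but it did without Colgalt2 replicate 1 (log2 fold change 0.91, adjusted p = 0.00369). Slc32a1, the vesicular GABA transporter, and the transcription factors Dlx1 and Dlx2 rose (log2 fold changes 1.36, 1.79 and 2.62), as did Reln and Adarb2. Nos1, the neuronal nitric oxide synthase, was the member that fell, to 33.4 and 40.3 CPM in Gprin3 IPs, against 68.1, 58.1 and 56.4 CPM in Colgalt2 IPs (log2 fold change -0.74, adjusted p = 0.0408; 0.333, 0.177 and 0.118 without Gprin3 replicate 1, Gprin3 replicate 2 and Colgalt2 replicate 2). The number of higher members was 5 without Gprin3 replicate 1, 7 without Gprin3 replicate 2, 6 without Colgalt2 replicate 2 and 16 without Colgalt2 replicate 1; Pvalb, Sst, Npy, Lhx6 and Vip passed in each case.

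**Figure D3:**
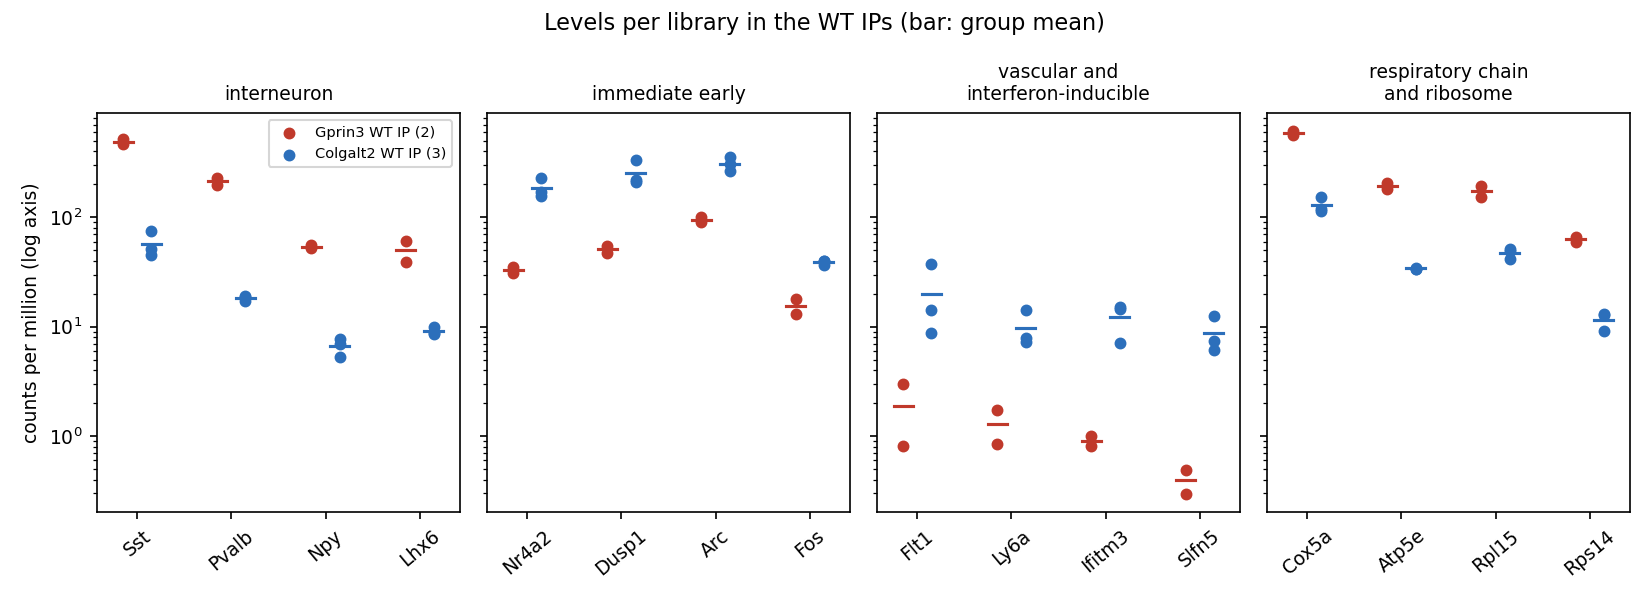
CPM (log axis) per library of 16 genes in the 2 Gprin3 (red) and 3 Colgalt2 (blue) wild-type IPs, in panels of interneuron, immediate early, vascular or interferon-inducible, and respiratory chain or ribosomal genes; the short bar is the group mean. The interneuron, respiratory chain and ribosomal genes are high in both Gprin3 libraries, and the other panels are high in every Colgalt2 library. The 16 genes were picked from those past the threshold, so the separation of the groups shown here is no further support. Libraries of the groups did not overlap for 47.7% of all genes tested.

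Neuropeptides moved both ways: of 25 tested, 8 rose and 5 fell, with a median of 0.31. Besides Sst, Npy and Vip, the stress peptide gene Crh rose to 4.87 and 6.14 CPM in Gprin3 IPs, against 0.213, 0.337 and 0.534 CPM in Colgalt2 IPs (log2 fold change 3.90, adjusted p = 0.00451; 0.0524 without Gprin3 replicate 2). Its binding protein Crhbp rose as well (log2 fold change 2.32, adjusted p = 0.000887). The opioid precursors went in opposite directions. Pdyn, prodynorphin, was at 58.0 and 57.5 CPM in Gprin3 IPs, against 11.3, 9.12 and 11.2 CPM in Colgalt2 IPs (log2 fold change 2.44, adjusted p = 0.000233). Penk, proenkephalin, was at 13.7 and 32.5 CPM in Gprin3 IPs, against 80.3, 81.5 and 101 CPM in Colgalt2 IPs (log2 fold change -1.95, adjusted p = 0.00498). Neither group overlapped the other for either gene.

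Trh, the precursor of thyrotropin-releasing hormone, had no read in the Gprin3 libraries and 143 in the Colgalt2 libraries, which makes it at least 13.1-fold lower in Gprin3 IPs with a floor of 3 counts over the group. Nts, neurotensin, was at 0.223 and 0.298 CPM in Gprin3 IPs, against 4.07, 1.88 and 3.53 CPM in Colgalt2 IPs (log2 fold change -3.60, adjusted p = 0.0152; 0.107 and 0.0807 without Gprin3 replicate 1 and 2). Only 1 neuropeptide was called lower without either Gprin3 library, and 3 without Colgalt2 replicate 2.

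Of 15 endothelial markers tested, 9 were lower in Gprin3 IPs, none was higher and 6 did not pass, with a median log2 fold change of -2.47. Flt1, a receptor for vascular endothelial growth factor, was at 0.804 and 2.98 CPM in Gprin3 IPs, against 37.1, 14.2 and 8.76 CPM in Colgalt2 IPs. The Colgalt2 libraries were all above the inputs (1.54 to 3.0 CPM) and differed among themselves, with replicate 1 highest. The log2 fold change was -3.42 ± 0.72 (adjusted p = 0.0157; 0.109 without Gprin3 replicate 1), and it was -2.71 without Colgalt2 replicate 1 (adjusted p = 0.00592). Ly6a, a surface antigen of brain endothelium, was at 0.849 and 1.73 CPM in Gprin3 IPs, against 14.2, 7.96 and 7.19 CPM in Colgalt2 IPs (log2 fold change -2.94, adjusted p = 0.00486; 0.0555 without Gprin3 replicate 1). Pecam1, Kdr, Emcn, Cldn5, Slco1a4, Ly6c1 and Cdh5 were the other lower members.

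The summed endothelial level was 233 and 235 CPM in Gprin3 IPs, against 432, 361 and 344 CPM in Colgalt2 IPs and 132 to 189 CPM in inputs, and none of the markers was at 0 in either group. Further genes known from the vessel wall, grouped after their values were seen, also fell: the transcription factor Sox18 (log2 fold change -3.83), the adaptor Nostrin (-3.97), the TGF-beta co-receptor Eng (-4.06), the Wnt effector Lef1 (-3.92) and the transporter Slc22a8 (-3.73). These 5 kept their call without each library in turn, whereas the number of lower list members was 1 without Gprin3 replicate 1, 5 without Gprin3 replicate 2 and 3 without Colgalt2 replicate 2, and 10 without Colgalt2 replicate 1. Of 14 pericyte, smooth muscle and meningeal markers tested, none was called in either direction by edgeR, with a median of -0.31, 1 was lower at an unadjusted p under 0.05, and 1 was called lower by DESeq2. Their summed level was 89.7 and 91.9 CPM in Gprin3 IPs, against 160, 65.4 and 64.7 CPM in Colgalt2 IPs, so that Colgalt2 replicate 1 lies above the Gprin3 libraries and the others below them; without it 1 member was called higher and none lower by edgeR. In other sets these markers were lower in the Gprin3 line, with 7 of 11 called in SOD1*G93A IPs (median -3.11) and 5 of 12 in baseline IPs (median -2.70).

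Glial markers differed little in count. Of 14 astrocyte members, S100b rose (log2 fold change 1.14, adjusted p = 0.0107) and none fell, with a median of 0.08. None of 14 oligodendrocyte, 8 oligodendrocyte precursor and 15 microglial members tested was called by the edgeR test, with medians of 0.20, -0.38 and 0.54. At an unadjusted p under 0.05, edgeR had 4, 2 and 2 members of these 3 lists in either direction, and DESeq2 called 2 oligodendrocyte members, no precursor member and 1 microglial member. Without Colgalt2 replicate 1, 3 astrocyte members were higher, 1 precursor member was higher, and 1 oligodendrocyte member was higher and 1 lower; S100b was not called without either Gprin3 library or Colgalt2 replicate 2. Summed microglial markers were at 42.6 and 68.2 CPM in Gprin3 IPs, against 47.5, 25.4 and 34.7 CPM in Colgalt2 IPs and 93.7 to 119 CPM in inputs.

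Among the genes with the lowest fold changes, 4 are known to be induced by interferon, a grouping made after their values were seen. Oasl2, an oligoadenylate synthetase-like protein, was at 0.536 and 0.119 CPM in Gprin3 IPs, against 5.74, 9.84 and 6.48 CPM in Colgalt2 IPs (log2 fold change -4.43, adjusted p = 0.00264). Slfn5, a Schlafen protein, was at 0.491 and 0.298 CPM in Gprin3 IPs, against 12.5, 7.39 and 6.16 CPM in Colgalt2 IPs (log2 fold change -4.42, adjusted p = 0.0012). Both were near absence in the Gprin3 libraries and present in every Colgalt2 library. Lgals9, a galectin, was at 0.0894 and 0.655 CPM in Gprin3 IPs, against 12.8, 4.70 and 6.52 CPM in Colgalt2 IPs (log2 fold change -4.49, adjusted p = 0.00526). Ifitm3, a membrane protein that restricts viral entry, was at 0.804 and 1.01 CPM in Gprin3 IPs, against 14.4, 15.2 and 7.12 CPM in Colgalt2 IPs (log2 fold change -3.76, adjusted p = 0.0012).

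Ifit2, another gene of this kind, went the other way, to 26.5 and 22 CPM in Gprin3 IPs, against 8.03, 3.68 and 3.74 CPM in Colgalt2 IPs (log2 fold change 2.24, adjusted p = 0.00331). Ifitm3 and Lgals9 are also made by endothelial cells, whose markers fell in the same libraries; the part of that in these values was not tested.

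The promoters of these lower genes are shown because they can be read for the interferon-stimulated response element, searched as GAAA, any 2 bases and GAAA on either strand and printed in capitals. Each window runs from 250 bases before to 50 bases after the RefSeq start (GRCm38.p6), 300 bases on the gene's strand. The element's letters were present in 3.49% of 27025 such windows. They were found once in Slfn5, in 2 places in Lgals9 and in 2 places in Ifitm3, and in no place in the Oasl2 window. A match describes letters, not use of a site. The windows are chr11:82951852-82952151 on the plus strand for Slfn5, chr11:78984875-78985174 on the minus strand for Lgals9 and chr7:141010695-141010994 on the minus strand for Ifitm3.
Slfn5: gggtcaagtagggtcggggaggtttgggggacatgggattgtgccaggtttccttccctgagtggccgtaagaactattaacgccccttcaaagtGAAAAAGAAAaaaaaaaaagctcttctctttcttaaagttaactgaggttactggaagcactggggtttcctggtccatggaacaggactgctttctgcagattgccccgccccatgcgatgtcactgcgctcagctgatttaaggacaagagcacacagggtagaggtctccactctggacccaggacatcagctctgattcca
Lgals9: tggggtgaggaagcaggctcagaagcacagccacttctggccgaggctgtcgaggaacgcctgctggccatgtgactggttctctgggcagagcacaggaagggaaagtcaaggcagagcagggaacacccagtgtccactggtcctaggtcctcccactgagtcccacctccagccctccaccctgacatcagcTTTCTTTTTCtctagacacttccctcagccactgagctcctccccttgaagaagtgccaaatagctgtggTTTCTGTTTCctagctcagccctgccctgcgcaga
Ifitm3: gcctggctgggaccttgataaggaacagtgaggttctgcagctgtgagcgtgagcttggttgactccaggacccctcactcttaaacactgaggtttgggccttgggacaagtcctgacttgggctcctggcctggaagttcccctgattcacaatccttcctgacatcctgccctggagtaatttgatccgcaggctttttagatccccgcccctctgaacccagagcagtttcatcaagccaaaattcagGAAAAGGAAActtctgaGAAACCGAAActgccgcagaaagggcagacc

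Immediate early genes, which neurons switch on within minutes of activity or stress, were lower in Gprin3 IPs. Of 24 tested, 14 fell and none rose, with a median log2 fold change of -1.46 against -0.02 over all genes. Their summed level was 1832 and 1868 CPM in Gprin3 IPs, against 3218, 3411 and 4061 CPM in Colgalt2 IPs and 1930 to 2675 CPM in inputs. The Gprin3 libraries were below every input, and the Colgalt2 libraries were above every input. The members that fell were the transcription factor genes Fos, Fosb, Jun, Junb, Egr1, Egr2, Egr4, Npas4, Nr4a1, Nr4a2, Klf4 and Maff, the synaptic gene Arc and the phosphatase gene Dusp1.

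Nr4a2, an orphan nuclear receptor, was at 30.9 and 35.4 CPM in Gprin3 IPs, against 171, 157 and 227 CPM in Colgalt2 IPs (log2 fold change -2.51 ± 0.24, adjusted p = 0.000242). The inputs held 25.5 to 44.5 CPM, the range of the Gprin3 libraries. Nr4a2 is also a marker of the claustrum and of layer 6b. Its relative Nr4a1 was at 37.4 and 28.7 CPM in Gprin3 IPs, against 127, 130 and 117 CPM in Colgalt2 IPs (log2 fold change -1.93, adjusted p = 0.000498). Npas4, a neuronal activity factor, was at 5.72 and 6.73 CPM in Gprin3 IPs, against 39.1, 48.5 and 28.3 CPM in Colgalt2 IPs (log2 fold change -2.65, adjusted p = 0.000648).

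Arc, which encodes an activity-regulated synaptic protein, was at 101 and 89.7 CPM in Gprin3 IPs, against 352, 309 and 267 CPM in Colgalt2 IPs (log2 fold change -1.71, adjusted p = 0.00051). Fos was at 13.0 and 17.9 CPM in Gprin3 IPs, against 40.2, 36.8 and 39.6 CPM in Colgalt2 IPs (log2 fold change -1.35, adjusted p = 0.00671). In each of these genes every Colgalt2 library was above both Gprin3 libraries. Egr1, a zinc-finger transcription factor, was at 476 and 533 CPM in Gprin3 IPs, against 1036, 1093 and 1379 CPM in Colgalt2 IPs (log2 fold change -1.24, adjusted p = 0.00486). Without Gprin3 replicate 1, Fos and Egr1 missed the threshold (adjusted p = 0.113 and 0.098), and without Gprin3 replicate 2 Egr1 did (0.0662). The number of lower members was 7 without Gprin3 replicate 1, 8 without Gprin3 replicate 2 and 9 without Colgalt2 replicate 2; Arc, Npas4, Nr4a1, Nr4a2, Dusp1 and Egr2 passed in each case. Maff missed the threshold without any 1 of the Colgalt2 libraries (adjusted p = 0.0503 to 0.086, the highest without replicate 1). The time between handling and dissection is not given in the labels used here, and its part was not tested.

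Dusp1, a phosphatase that switches off MAP kinases, was at 55.2 and 46.7 CPM in Gprin3 IPs, against 209, 333 and 218 CPM in Colgalt2 IPs (log2 fold change -2.33 ± 0.26, adjusted p = 0.00051). Its promoter is shown because it holds the full palindrome of the cAMP response element, TGACGTCA, in capitals. The window is chr17:26508423-26508722 on the minus strand. The palindrome was found in 2 of 20 immediate early genes with a window, Dusp1 and Btg2, and in 1.88% of the 27025 windows. Btg2 did not pass the threshold in the comparison. The CArG box, searched on both strands in its strict form CCWWWWWWGG with W for A or T, was found in none of the 20 and in 1.57% of all windows. Looser forms and sites outside the window were not searched, and Egr1 and Arc had no window. The search therefore cannot say whether these genes lack the box.
Dusp1: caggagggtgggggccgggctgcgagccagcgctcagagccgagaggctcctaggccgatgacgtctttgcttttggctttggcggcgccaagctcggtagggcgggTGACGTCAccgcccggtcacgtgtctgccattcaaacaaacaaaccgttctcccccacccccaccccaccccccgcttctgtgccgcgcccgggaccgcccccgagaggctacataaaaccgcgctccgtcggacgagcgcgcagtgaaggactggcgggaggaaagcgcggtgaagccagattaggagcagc

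Genes of the mitochondrial respiratory chain and ATP synthase rose together in number. Of 77 tested, 52 were higher and 1 lower in Gprin3 IPs, with a median log2 fold change of 1.0, and 74 had a positive value. The summed level was 17832 and 16535 CPM in Gprin3 IPs, against 9772, 10048 and 10214 CPM in Colgalt2 IPs and 13253 to 15669 CPM in inputs. The inputs lay between the IPs of the 2 lines. Atp5e, the epsilon subunit of ATP synthase, was at 206 and 180 CPM in Gprin3 IPs, against 33.6, 34.6 and 33.9 CPM in Colgalt2 IPs (log2 fold change 2.49 ± 0.18, adjusted p = 5.59e-05). Cox5a, a subunit of cytochrome c oxidase, was at 567 and 613 CPM in Gprin3 IPs, against 115, 154 and 120 CPM in Colgalt2 IPs (log2 fold change 2.17, adjusted p = 0.000187). Ndufb8 of complex I and Ndufa4 had log2 fold changes of 2.30 and 2.04.

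Atp5b, the catalytic beta subunit of ATP synthase, was the member that fell, to 1625 and 1372 CPM in Gprin3 IPs, against 2261, 2435 and 2401 CPM in Colgalt2 IPs (log2 fold change -0.68, adjusted p = 0.0375). It missed the threshold without either Gprin3 library (adjusted p = 0.199 and 0.376) or Colgalt2 replicate 2. The number of higher members was 30 without Gprin3 replicate 1, 35 without Gprin3 replicate 2 and 36 without Colgalt2 replicate 2, and 39 with the trend on transcript length taken out. Across 14723 genes with a length, the fold change had a Spearman correlation of -0.05 with transcript length and -0.23 with GC content; genes are not independent replicates.

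Cytoplasmic ribosomal protein genes followed in smaller number, with 29 of 78 higher, 1 lower and a median of 0.65. Their summed level was 3838 and 3713 CPM in Gprin3 IPs, against 2282, 2344 and 2459 CPM in Colgalt2 IPs, and 4867 to 6204 CPM in inputs. Rps14 was at 66.0 and 60.1 CPM in Gprin3 IPs, against 13.0, 12.7 and 9.19 CPM in Colgalt2 IPs (log2 fold change 2.43 ± 0.23, adjusted p = 0.000233). Rpl15, Rplp1 and Rpl41 had log2 fold changes of 1.86, 2.09 and 1.60, and Rpl7a fell (-1.15, adjusted p = 0.0236; not called without either Gprin3 library or Colgalt2 replicate 2, with p up to 0.229). These genes have many processed pseudogenes, so their counts are uncertain where reads were shared. Of these members 11 were higher without Gprin3 replicate 1, 12 without Gprin3 replicate 2, 11 without Colgalt2 replicate 2 and 17 with the length trend taken out.

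Antioxidant genes had 6 of 18 members higher and none lower (median 0.47), where 6.90% of all genes tested rose and 6.10% fell. The higher members were the glutathione peroxidases Gpx1 and Gpx4, the peroxiredoxins Prdx1, Prdx3 and Prdx5, and the thioredoxin Txn1. Gpx1 was at 110 and 98.5 CPM in Gprin3 IPs, against 28.5, 36.8 and 23.1 CPM in Colgalt2 IPs (log2 fold change 1.81, adjusted p = 0.0011). Sod1, the mouse counterpart of the SOD1*G93A transgene, was at 323 and 320 CPM in Gprin3 IPs, against 224, 332 and 230 CPM in Colgalt2 IPs. The Sod1 values overlap (log2 fold change 0.27, adjusted p = 0.419). Without Gprin3 replicate 1, 1 antioxidant member was higher, and 2 were without Gprin3 replicate 2 or Colgalt2 replicate 2. Of 16 glycolytic genes 1 passed, Aldoa, which fell (log2 fold change -0.71, adjusted p = 0.0273; 0.221, 0.282 and 0.127 without Gprin3 replicate 1, Gprin3 replicate 2 and Colgalt2 replicate 2).

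Among ion channel genes the calls went both ways, where 13.0% of all genes tested passed the threshold. Of 60 potassium channel genes, 6 rose and 7 fell (median 0.06); of 15 sodium and HCN channel genes, 2 rose and 1 fell (0.19); of 26 calcium channel genes, 1 rose and 4 fell (-0.31). Kcnip3, an auxiliary subunit of A-type potassium channels, was at 138 and 128 CPM in Gprin3 IPs, against 367, 484 and 529 CPM in Colgalt2 IPs (log2 fold change -1.81, adjusted p = 0.0011). Its relative Kcnip1 was at 48.2 and 50.8 CPM in Gprin3 IPs, against 15.4, 12 and 17.5 CPM in Colgalt2 IPs (log2 fold change 1.71, adjusted p = 0.00206). The 2 subunits thus had opposite signs, with no overlap between groups for either.

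Kcnc2, which encodes a Kv3 channel of fast-spiking cells, and the sodium channel subunit genes Scn1a and Scn4b rose (log2 fold changes 1.37, 1.08 and 1.20), and Scn3b fell (-1.46, adjusted p = 0.00226; 0.056 without Gprin3 replicate 1). Kcnc2, Kcnip1 and Scn1a are also used by interneurons, whose markers rose in the same libraries; the part of that was not tested. Kcnc2 and Scn1a missed the threshold without Gprin3 replicate 2 (adjusted p = 0.0564 and 0.0785). Of 22 calcium buffers and sensors, 3 rose and 2 fell, among them Hpcal4, a neuronal calcium sensor (log2 fold change -1.50, adjusted p = 0.0019; 0.0581 without Gprin3 replicate 2).

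Calls among receptor genes had both signs, where 13.0% of all genes tested passed the threshold. Of 25 glutamate receptor genes, Grm2 fell and none rose; of 17 GABA and glycine receptor genes, Gabrb2 rose and Gabbr2 fell; of 56 peptide and monoamine receptor genes, 4 rose and 4 fell. The cannabinoid receptor gene Cnr1 was at 274 and 298 CPM in Gprin3 IPs, against 137, 136 and 152 CPM in Colgalt2 IPs (log2 fold change 0.99, adjusted p = 0.00575). The groups do not overlap, and the call was lost without Gprin3 replicate 1 or 2 (adjusted p = 0.0643 and 0.0965). Grm2, Gabrb2 and Gabbr2 were not called without either Gprin3 library, with adjusted p-values up to 0.203, and Grm2 and Gabrb2 were also lost without Colgalt2 replicate 2.

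In 4 lists of synaptic and axonal genes more members fell than rose. Over all genes tested, 6.90% rose and 6.10% fell. The medians of the adhesion and axonal cytoskeleton lists lay near that of all genes (-0.02). Of 37 presynaptic genes, 7 fell and 1 rose (median -0.26); of 70 axon guidance genes, 9 fell and 4 rose (-0.29); of 50 adhesion genes, 7 fell and 2 rose (0.01); of 47 axonal cytoskeleton and transport genes, 5 fell and 2 rose (0.00). Doc2b, a calcium sensor of vesicle release, was at 7.77 and 4.59 CPM in Gprin3 IPs, against 40.6, 32.2 and 49.5 CPM in Colgalt2 IPs (log2 fold change -2.73 ± 0.33, adjusted p = 0.000947). Stmn3, a microtubule regulator, went the other way, to 645 and 614 CPM in Gprin3 IPs, against 212, 238 and 168 CPM in Colgalt2 IPs (log2 fold change 1.60, adjusted p = 0.000718). The protocadherin Pcdh20 also rose (log2 fold change 2.11, adjusted p = 0.00394).

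Bassoon (Bsn), a scaffold of the active zone, was the presynaptic gene that rose, at 808 and 892 CPM in Gprin3 IPs against 661, 252 and 297 CPM in Colgalt2 IPs (log2 fold change 1.08, adjusted p = 0.0437). It missed the threshold without either Gprin3 library, Colgalt2 replicate 2 or Colgalt2 replicate 3, at adjusted p-values of 0.179, 0.233, 0.174 and 0.127. Without Colgalt2 replicate 1, the highest of its group, the log2 fold change was 1.54 (adjusted p = 8.4e-05). The vesicle proteins Syp and Syn1 fell (log2 fold changes -1.12 and -1.09), as did the guidance genes Efnb3 and Nrp2 (-1.77 and -1.68); these 4 missed the threshold without Gprin3 replicate 1, with adjusted p-values up to 0.139.

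Regional markers bear on the dissection, since whole cortex can hold tissue that motor cortex lacks. The counts below stand beside 6.90% of all genes tested that rose and 6.10% that fell. Of 10 claustrum and piriform markers, 4 fell and none rose (Nr4a2, Ntng2, Lxn and Trh), with a median of -1.0, and their summed level was 533 and 545 CPM in Gprin3 IPs, against 665, 753 and 909 CPM in Colgalt2 IPs and 651 to 731 CPM in inputs. One of them was called without either Gprin3 library or Colgalt2 replicate 2. In the baseline IPs, both from M1, 3 of 9 tested were higher in the Gprin3 line and none lower (median 0.69), where 2.22% of all genes were higher and 4.45% lower. Summed levels in that set were 661 to 691 CPM in the Gprin3 line, against 327 to 415 CPM in the Colgalt2 line. Of 12 hippocampal markers tested, 2 rose, among them Calb1, and 3 fell, among them Wfs1 and Cpne7. Their summed level overlapped between the groups, at 380 to 381 CPM in Gprin3 IPs and 371 to 442 CPM in Colgalt2 IPs. Cpne7, a copine, was at 3.66 and 4.47 CPM in Gprin3 IPs, against 33.1, 22.7 and 18.9 CPM in Colgalt2 IPs (log2 fold change -2.62, adjusted p = 0.0011). Of 13 striatal markers, Pdyn rose and Penk fell. Of 20 genes that pattern cortical areas, 1 rose, Id2 (log2 fold change 0.79, adjusted p = 0.0224; 0.207 without Gprin3 replicate 1), and none fell. The part of the dissection in these values cannot be told apart from that of the line.

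Of 35 ALS-linked genes tested, 3 rose and 1 fell, with a median of 0.03. Over all genes tested, 6.90% rose and 6.10% fell. Sqstm1 and Chmp2b rose (log2 fold changes 0.85 and 0.91) and Pfn1 fell (-0.78). Matr3, a nuclear matrix protein that binds RNA, was at 628 and 718 CPM in Gprin3 IPs, against 261, 139 and 207 CPM in Colgalt2 IPs (log2 fold change 1.72 ± 0.23, adjusted p = 0.0014). Its call held without each library in turn, whereas the other 3 were not called without either Gprin3 library or Colgalt2 replicate 2, with adjusted p-values up to 0.289. Of 31 chaperone and unfolded-protein genes, 1 rose and 4 fell, with a median of -0.01.

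The same contrast of lines in other libraries of the series places these values. In the SOD1*G93A littermates, with the same dissections, 4615 of 13750 genes passed (33.6%), 17.0% higher and 16.6% lower in the Gprin3 line. Of 1901 wild-type calls tested there, 1863 (98.0%) had the same sign and 1524 passed with it, which is 80.2% of those wild-type calls and 33.0% of the SOD1*G93A calls. In the baseline IPs, both from M1, 907 of 13604 genes passed (6.67%), with 2.22% higher and 4.45% lower in the Gprin3 line; 1440 of 1890 wild-type calls tested there (76.2%) had the same sign, and 250 passed with it, 13.2% of those tested and 27.6% of the baseline calls, and 45 passed with the opposite sign. Genes called with 1 sign in all 3 sets, which share no library, numbered 240 of 13222 (1.82%), with 148 (1.12%) higher and 92 (0.696%) lower in the Gprin3 line.

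Colgalt2, Tsen15, Erg, Pvalb, Sst, Npy, Pdyn, Crhbp, Slco2a1, Etv1, Calb1, Atp5e, Cox5a, Rps14, Gpx1 and Kcnip3 were among those 240. Sst was at 534 to 606 CPM in Gprin3 and 33.1 to 86.9 CPM in Colgalt2 IPs of SOD1*G93A mice, and at 643 to 680 CPM in Gprin3 and 33.2 to 51.3 CPM in Colgalt2 baseline IPs. Its log2 fold changes were 3.07, 3.40 and 3.95 in wild-type, SOD1*G93A and baseline IPs. Erg had log2 fold changes of -7.83, -7.85 and -5.95 in the same order, and Etv1 of -1.53, -1.55 and -2.18.

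**Figure D4:**
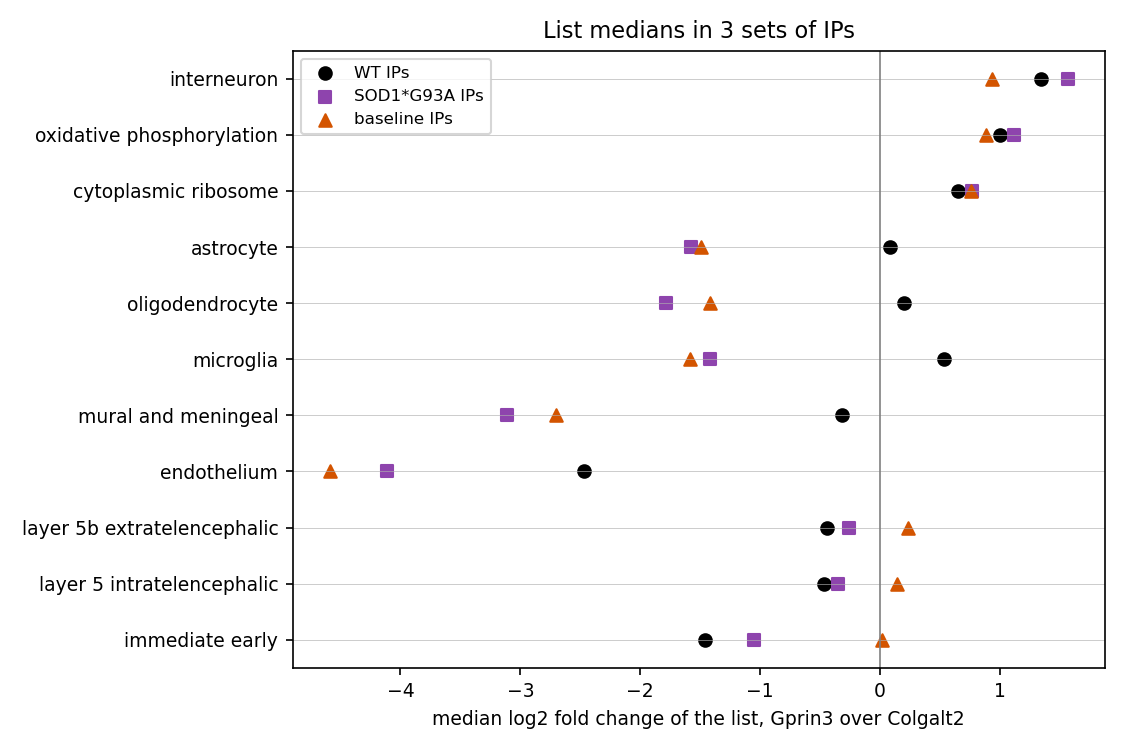
Median log2 fold change, Gprin3 over Colgalt2 (x axis), of 11 gene lists in wild-type IPs (black circles), SOD1*G93A IPs (purple squares) and baseline IPs (orange triangles). Interneuron and respiratory chain medians are positive and endothelial medians negative in each set. The astrocyte, oligodendrocyte and microglial medians are 0.08, 0.20 and 0.54 in the wild-type IPs and below -1 in the other sets, and the immediate early median is near zero (0.01) in the baseline IPs.

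Whether the line difference itself differed between the wild-type IPs and the baseline IPs was tested as an interaction: 439 of 14917 genes passed (2.94%), 304 (2.04%) with a more positive and 135 (0.905%) with a more negative value in the wild-type IPs, and the median over all genes was 0.01. Of 24 immediate early members, 5 were more negative and none more positive. Nr4a1 had log2 fold changes of -1.93 in wild-type and 0.57 in baseline IPs (difference -2.56 ± 0.54, adjusted p = 0.0201), and Dusp1 of -2.33 and 0.13 (difference -2.52 ± 0.44, adjusted p = 0.0082). In baseline IPs Dusp1 was at 80.9 to 162 CPM in the Gprin3 line and at 85.2 to 141 CPM in the Colgalt2 line, and the lines overlapped. For Nr4a2 (difference -1.29, adjusted p = 0.232), Fos (-1.21, 0.362) and Arc (-0.49, 0.677) the difference did not pass. Without Gprin3 replicate 2 of the wild-type set, Nr4a1 and Dusp1 also missed the threshold (adjusted p = 0.156 and 0.0687), and without Gprin3 replicate 1 of the baseline set (0.11 and 0.0651). Nr4a1 was also lost without Gprin3 replicate 1 (0.0773) or Colgalt2 replicate 2 (0.0579) of the wild-type set.

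Of 24 interneuron members, 4 were more positive in the wild-type set, among them Pvalb, Vip and Gad1. Gad1 was lower in value in the Gprin3 line of the baseline set, at 107 to 129 CPM against 162 to 212 CPM (log2 fold change -0.65, adjusted p = 0.152), so that the difference between sets was 1.92 ± 0.41 (adjusted p = 0.0205). Pvalb was higher in both sets, with log2 fold changes of 3.52 and 1.86 and a difference of 1.59 ± 0.31 (adjusted p = 0.012). Without Gprin3 replicate 2 of the wild-type set both missed the threshold (adjusted p = 0.0915 and 0.0835), as they did without Gprin3 replicate 1 of the baseline set (0.0889 and 0.101). Gad1 was also lost without wild-type Gprin3 replicate 1, wild-type Colgalt2 replicate 2, baseline Gprin3 replicate 2 or baseline Colgalt2 replicate 1, at adjusted p-values up to 0.0912. Endothelial members had no interaction call, and their median in the baseline IPs was -4.59, with 10 of 15 lower. For glial markers, whose sums in the Gprin3 libraries are given above, the sets also differed in count. In the wild-type IPs none was lower, whereas 6 of 14 astrocyte, 4 of 13 oligodendrocyte and 3 of 12 microglial members tested were lower in the baseline IPs (medians -1.49, -1.42 and -1.59), and 3, 1 and 2 members of these lists had a more positive value in the wild-type set. In the SOD1*G93A IPs 9 of 14 astrocyte, 9 of 14 oligodendrocyte and 3 of 13 microglial members were lower (medians -1.58, -1.79 and -1.42); the difference between wild-type and SOD1*G93A sets was not tested. Respiratory chain members had 28 of 77 higher in the baseline IPs (median 0.88) and 1 interaction call, Atp5e (adjusted p = 0.0409; lost without either Gprin3 library of either set, wild-type Colgalt2 replicate 2 or baseline Colgalt2 replicate 1, with p up to 0.23). Of 31 interaction calls reported, 9 passed without each of the 9 libraries in turn: Parm1, Penk, Bsn, Snhg14, Irf4, Ndst4, Lrguk, Yeats2 and Sh2d3c.

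**Figure D5:**
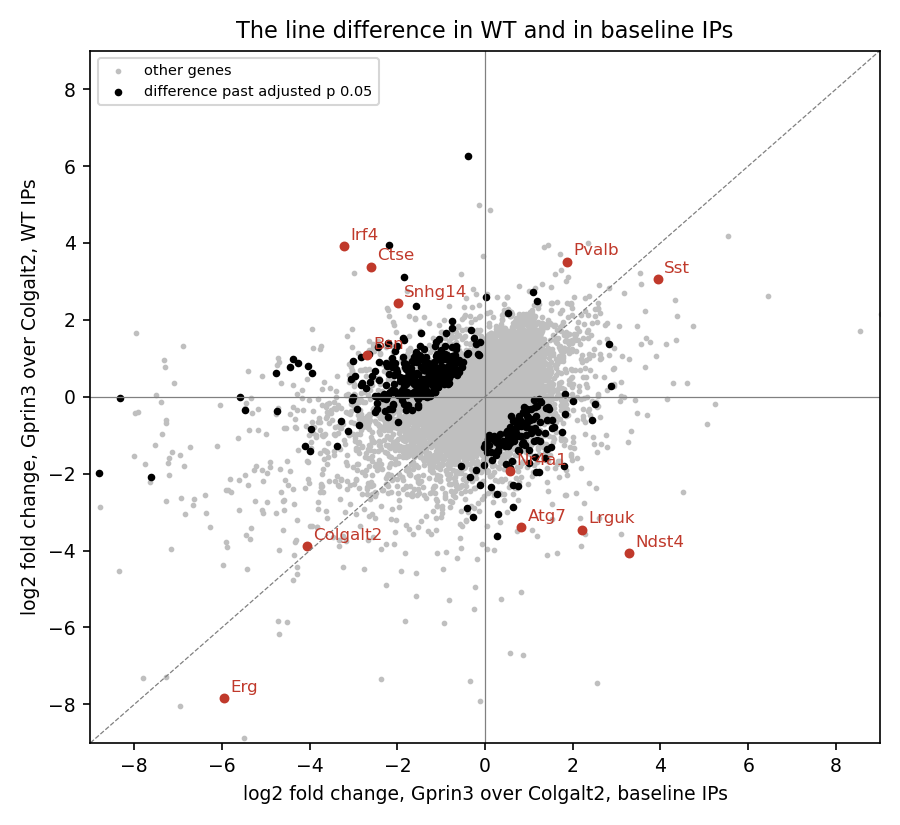
Log2 fold changes, Gprin3 over Colgalt2, in wild-type IPs (y axis) and baseline IPs (x axis) for 13499 genes tested in both; black points passed the test of the difference between sets, red points are named, the dashed line marks equal values, and 4 points lie beyond the axis limit of 9. Irf4 and Ctse lie at upper left, positive in wild-type and negative in baseline IPs, Ndst4 and Lrguk lie at lower right, and Colgalt2, Sst, Erg and Pvalb have 1 sign in both sets.

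A few genes changed sign between the sets by a wide margin. Irf4, a transcription factor best known from lymphocytes, was at 37.3 and 31.2 CPM in Gprin3 IPs, against 3.14, 1.58 and 2.07 CPM in Colgalt2 IPs (log2 fold change 3.92 ± 0.33, adjusted p = 0.000142). In baseline IPs it was at 0.886 to 1.14 CPM in the Gprin3 line, against 6.08 to 12.6 CPM in the Colgalt2 line, and in Gprin3 IPs of SOD1*G93A mice at 20.7 to 369 CPM. Inputs held 0.43 to 2.4 CPM. Ctse, the protease cathepsin E, was at 42.8 and 26.9 CPM in Gprin3 IPs, against 2.92, 5.58 and 1.25 CPM in Colgalt2 IPs (log2 fold change 3.38, adjusted p = 0.0019), and at 23.7 to 460 CPM in Gprin3 IPs of SOD1*G93A mice. For both genes the Gprin3 libraries of the second set are high and those of the baseline set low. The difference between sets kept its call for Irf4 without each library, and Ctse missed the threshold without either baseline Gprin3 library (adjusted p = 0.0545 and 0.0507).

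Atg7, an enzyme of autophagy, was at 41.3 and 39.3 CPM in Gprin3 IPs, against 368, 468 and 407 CPM in Colgalt2 IPs (log2 fold change -3.38 ± 0.22, adjusted p = 1.93e-05). The M1 inputs held 21.4 to 26.6 CPM, and every Colgalt2 library was far above them. In baseline IPs it was at 314 to 543 CPM in the Gprin3 line and 94.1 to 376 CPM in the Colgalt2 line, and the difference between sets was -4.25 ± 0.78 (adjusted p = 0.022). That difference missed the threshold without any 1 of the 5 wild-type IPs, at adjusted p-values of 0.0501 to 0.168, and without Gprin3 replicate 1 of the baseline set (0.0732). Yeats2, a chromatin reader, and Sh2d3c, a signalling adaptor, had log2 fold changes of -3.63 and -2.86 in the wild-type IPs and 0.27 and 0.63 in the baseline IPs. The noncoding host gene Snhg14 was at 74.3 and 99.3 CPM in Gprin3 IPs, against 17.4, 13.5 and 16.4 CPM in Colgalt2 IPs (log2 fold change 2.45, adjusted p = 0.000212), and had the opposite sign in baseline IPs (-1.99, adjusted p = 0.005).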

How the data were processed

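Messenger RNA bound to EGFP-L10a-tagged ribosomes was immunoprecipitated from cortex and amplified from 15 ng of RNA (NuGEN Ovation RNA-Seq V2, then TruSeq v2 libraries), per the labels' protocols. The deposited files hold raw read counts per gene that the authors made with Subread featureCounts on mm10, per the submitters' processing notes; these notes name DESeq2 1.26.0 and give no version for the counter. The files list 24100 features; 9 without a symbol, at most 0.0201% of a library, were left out, and 36 columns of 6 tables of the authors' comparisons were not used.

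Counts of the 5 wild-type IPs were filtered (filterByExpr), TMM-normalised and tested with the edgeR 4.0.16 quasi-likelihood F test (limma 3.58.1, R 4.3.3), without covariates and with Benjamini-Hochberg adjustment over all genes tested. The interaction with the baseline IPs used 9 libraries, and the SOD1*G93A and baseline IPs were fitted on their own. The steps were tested on simulated data. Counting is not stated to use strand, so overlapping genes on opposite strands cannot be told apart.

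Named genes were those of 40 lists with the smallest p (up to 4 in the direction with more calls and up to 2 in the other), a fixed set, and those with the largest changes in the wild-type comparison, in all 3 sets and in the interaction; other called members are named where their list is described, and the genes of vessels and of interferon response were grouped after their values were seen. The members and lists were chosen with earlier results of these data known, and some genes are not reported here and were left out of the lists. Promoter windows were matched by symbol to RefSeq (20 of 24 immediate early genes). Alternatives were other scalings, filters and a DESeq2 1.42.0 test, removal of trends on length and GC content, thinning, a replicate block, wider fits and each library left out. Replicate numbers in the titles differ from those in the deposited names, and the Colgalt2 libraries of the second set carry a read mark in their names that the Gprin3 libraries lack, so a difference in sequencing or counting between the lines cannot be told apart from the line.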

Additional observations from a re-analysis of the deposited data

Results flagged for a closer look

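The line difference in log2, wild-type IPs minus baseline IPs, passed the edgeR quasi-likelihood test of the difference (adjusted p under 0.05) for 31 named genes. Among neuronal and interneuron genes it was 1.59 for Pvalb, 2.51 for Vip, 1.92 for Gad1, -1.53 for Calb1, 1.47 for Rasgrf2, -1.86 for Wfs1, -2.36 for Parm1 and -3.25 for Penk. Calb1 was higher in the Gprin3 line in both sets, and Penk was lower in the wild-type IPs with a value of the opposite sign in the baseline IPs (1.23, adjusted p = 0.0995).

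Among immediate early genes it was -1.31 for Egr1, -1.76 for Egr4, -2.56 for Nr4a1 and -2.52 for Dusp1. Among channel, sensor, synaptic and guidance genes it was 1.17 for Scn1a, 2.49 for Ryr2, -1.80 for Hpcal4, 3.71 for Bsn and -1.81 for Efnb3. Bsn was lower in the Gprin3 line in baseline IPs (-2.69, adjusted p = 0.00042).

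Among ALS-linked, mitochondrial and ribosomal genes it was 1.97 for Matr3, -1.78 for Pfn1, 1.24 for Atp5e and -2.33 for Rpl7a. Among the genes with the widest differences it was 4.37 for Snhg14, 6.10 for Pou2af1, 7.10 for Irf4, 5.96 for Ctse, -7.57 for Ndst4, -5.70 for Lrguk, -4.25 for Atg7, -3.94 for Yeats2, -3.54 for Sh2d3c and -3.41 for Lgals3bp.

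In the 4 Colgalt2 IPs of SOD1*G93A mice, replicate 2 stood apart in the summed level of mural and meningeal markers, at 159 CPM, against 42.1 to 59.5 CPM in the other 3. In groups too small to be tested this way, Colgalt2 replicate 1 was highest, at 160 CPM against 65.4 and 64.7 CPM in wild-type IPs and at 233 CPM against 85.5 CPM in baseline IPs. Summed choroid plexus and ependymal markers also had 1 high Colgalt2 SOD1*G93A library, at 10.9 CPM against a group median of 3.22 CPM. So did nuclear and noncoding RNA, at 4282 CPM against a group median of 1209 CPM. Chance sets 1 library apart in about 1 in 20 groups of this size for each list, and there were 40 lists.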

How the results depend on the processing

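The 1926 calls between wild-type IPs ranged from 1862 to 2886 over 11 alternatives, with 2886 under DESeq2, 2465 without a low-count filter, 1862 with the length trend and 1906 with the GC trend taken out. The share of calls higher in Gprin3 was 53.1% in edgeR and 47.4% in DESeq2. Leaving out 1 library gave 353 to 2863 calls; 331 of the 353 calls without Gprin3 replicate 1 were among the 1926 with the same sign. Of 129 reported genes past the threshold, 56 passed without each library in turn and 53 under each of 16 alternatives. The 439 interaction calls became 971 without a filter, 1005 under DESeq2 and 160 with the length trend taken out, and 52 to 855 with 1 library left out. The 240 genes of 1 sign in 3 sets became 446, 452 and 80 under these settings, and 48 to 409 with 1 library left out. The cause of these moves was not tested. The replicate numbers gave 2249, 520 and 344 calls as a block. Deviations of same-numbered libraries from their group means correlated at -0.0974 and -0.106. With 2 Gprin3 libraries these deviations mirror each other, so the values cannot decide whether the numbers pair the libraries. Of 31 reported interaction calls, 9 passed under each alternative and without each library; Atg7 (adjusted p = 0.332), Egr1 and Efnb3 lost theirs with the block, and Rasgrf2, Egr1, Egr4, Nr4a1, Scn1a, Ryr2 and Efnb3 with the length trend taken out. The Gprin3 log2 fold change of 0.01 turned to -0.0121 with DESeq2 size factors, -0.0017 without a filter, -0.0144 at a mean of 5 CPM or more, -0.0128 in DESeq2, -0.054 and -0.30 with length and GC trends taken out, -0.00478 with thinned libraries, -7.23e-05 and -0.048 in fits of 12 and 16 IPs, and -0.36 to 0.29 with 1 library left out. Layer 5b members lower were 8 under DESeq2 or at 5 CPM or more, and endothelial members lower 5 at 5 CPM or more. Groups of 2 and 3 libraries allow no exact permutation p under 0.1, so summed marker levels are given without a test.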

Other observations

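Choroid plexus and ependymal markers were near absence in the 5 wild-type IPs: their summed level was 2.9 and 2.9 CPM in Gprin3 IPs, against 12.9, 7.6 and 8.2 CPM in Colgalt2 IPs and 7.2 to 11 CPM in the M1 inputs. Of 5 members tested 1 was called, Ccdc153, a gene of ciliated cells, which had no read in the Gprin3 libraries and 128 in the Colgalt2 libraries, at least 11.7-fold lower in Gprin3 IPs with a floor of 3 counts over the group. None of 3 blood markers was called by edgeR or DESeq2, and 0 had an unadjusted p under 0.05.

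Genes of the sex chromosomes varied widely within the groups. Xist, which is made from the inactive X chromosome, was at 4.24 and 0.179 CPM in Gprin3 IPs, against 352, 164 and 0.214 CPM in Colgalt2 IPs. Ddx3y on the Y chromosome was at 0 and 72.4 CPM in Gprin3 IPs, against 23.3, 9.36 and 23.6 CPM in Colgalt2 IPs. None of 5 sex chromosome genes passed the edgeR threshold, 0 had an unadjusted p under 0.05, and DESeq2 called 1 lower.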
